A study of Homo sapiens with 4 samples.

Results

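The BTG and TOB antiproliferative family was examined in A375, a human melanoma cell line, with and without the tumour suppressor p53. All 5 members sought by name, BTG1, BTG2, BTG3, TOB1 and TOB2, were among the 26484 gene rows of the deposited expression table. Poly(A)-selected, strand-specific RNA sequencing covered 4 libraries: 2 of CRISPR-Cas9 edited A375 cells of genotype p53-/-, and 2 of unedited parental A375 cells that carry wild-type p53, all grown in DMEM. The knockout columns carry the numbers 2 and 8, the parental columns the numbers 1 and 2, and these numbers name the libraries below. The labels do not say whether the knockout libraries come from separate clones or the libraries of a group from separate cultures, so each p-value reflects the spread among these 4 libraries only. Edited cells with intact p53 were not part of the design.

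BTG and TOB proteins share an amino-terminal APRO domain that binds the CAF1 deadenylases CNOT7 and CNOT8 of the CCR4-NOT complex, which shortens the poly(A) tails of mRNAs. TOB proteins also bind the cytoplasmic poly(A)-binding protein PABPC1, and BTG1 and BTG2 bind the arginine methyltransferase PRMT1. Forced expression of family members slows entry into S phase in many cell types. BTG2, also known as TIS21 or PC3, is a direct transcriptional target of p53 and at the same time an immediate early gene that growth factors and phorbol ester induce. BTG1, its closest relative, is highly expressed in quiescent cells and is a target of FOXO factors. BTG3, also known as ANA, has been described as a p53-induced inhibitor of E2F1.

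By GENCODE 29 on GRCh38, the build named for the deposited data, BTG2 lies on the plus strand at chr1:203305491-203309602. The others lie on the minus strand, BTG1 at chr12:92140278-92145897, BTG3 at chr21:17593653-17612947, TOB1 at chr17:50862223-50867978 and TOB2 at chr22:41433492-41447023. The longest annotated coding sequence holds 171 codons for BTG1, 158 for BTG2, 296 for BTG3, 345 for TOB1 and 344 for TOB2. Aligned with no penalty for overhanging ends, BTG1 and BTG2 had 66.0% identical coding bases over 477 aligned positions, and TOB1 and TOB2 had 60.2% over 1023. BTG1 against either TOB gene, and BTG2 against TOB2, had 50.2% to 52.5%. These pairs aligned over 438 to 480 positions, only a part of the TOB coding sequences.

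The stretches before the RefSeq start sites (GRCh38.p14) of BTG2 and BTG1 are shown because these were the members whose knockout and parental values did not overlap. Each runs 5′ to 3′ over the 250 bases before the start, BTG2 from chr1:203305269-203305518 on the plus strand and BTG1 from chr12:92145847-92146096 on the minus strand. Capitals mark, on either strand, the GC box with its letters GGGCGG, the box named for its letters CCAAT, the TATA box searched for as TATAAA, and the short cyclic AMP motif described next, TGACG.
BTG2: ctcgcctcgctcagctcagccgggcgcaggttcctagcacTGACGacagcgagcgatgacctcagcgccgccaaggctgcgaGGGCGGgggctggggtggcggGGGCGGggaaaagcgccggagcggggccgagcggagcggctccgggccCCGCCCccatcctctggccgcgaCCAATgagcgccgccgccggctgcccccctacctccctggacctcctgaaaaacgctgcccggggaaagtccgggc
BTG1: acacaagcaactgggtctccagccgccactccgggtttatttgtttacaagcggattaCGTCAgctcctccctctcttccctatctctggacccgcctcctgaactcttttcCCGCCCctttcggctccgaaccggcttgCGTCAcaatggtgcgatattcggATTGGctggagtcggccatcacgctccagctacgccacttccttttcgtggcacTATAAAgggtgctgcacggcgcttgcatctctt

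No match to the p53 consensus decamer was found in the window of 250 bases before to 50 after the start in any of the 6 promoter entries of the members (TOB1 has 2), against 6.63% of 35116 promoters that hold one. Only exact matches were searched, so a site with mismatches inside these windows would be missed. The result does not settle whether p53 binds there or elsewhere. BTG2 held 3 GC boxes, BTG1 1, BTG3 3, TOB2 2 and 1 TOB1 window 3, and 44.95% of promoters held at least 1. CCAAT was in the windows of BTG2 and BTG1 and in the same TOB1 window, as in 34.6% of promoters. TATAAA was in the BTG1 window, its first base at position -33 from the start, and in no other member's, against 11.5% of promoters. TGACG, the core of the cyclic AMP response element and chosen after the sequences were seen, occurred in BTG2, in BTG1 (at 2 places) and in 1 TOB1 window, against 24.6% of promoters, with no overlap with the other motifs. The full element TGACGTCA, the E box CACGTG, the CArG box and the NF-kB site were in none of the 6 windows, against 1.85%, 7.26%, 1.29% and 5.91% of promoters. The BTG2 window was 73.3% G or C and the BTG1 window 56.0%, with a median of 58.7% over all promoters. BTG3 was at 77.3%, TOB2 at 68.7% and the TOB1 windows at 78.7% and 41.3%.

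Values are normalized counts, gene read counts that the authors divided by a factor per library; the reads behind them, recovered from the values, totalled 30334054 and 32160978 in knockout libraries 2 and 8, against 29230554 and 36331894 in parental libraries 1 and 2. The knockout libraries differed from each other more than the parental ones did (chi-square per degree of freedom 65.3 against 5.85), and neither pair was a copy. Of 8 melanocyte markers, MLANA and TYR were at 0 in every library, TYRP1 and DCT at no more than 14.3 and PMEL at 28.1 to 55.8, while SOX10, which neural crest cells and melanocytes express, had 25662 to 30033. MITF, the master regulator of melanocytes, had 849 and 1050 normalized counts in knockout libraries 2 and 8, against 1645 and 1562 in the parental libraries (DESeq2 adjusted p = 0.00272, limma adjusted p = 0.237). S100B had 1728 and 1428 in the knockout libraries, against 2138 and 2037 (DESeq2 adjusted p = 0.278). Of 7 fibroblast markers, COL1A2, COL3A1 and THY1 were below 10 in every library, DCN, COL1A1 and LUM lay between 10.96 and 165, and PDGFRB between 764 and 1166. Of the blood markers, HBB was at 0, PTPRC and CD3E below 10, CD14 at 6.84 to 12.1 and ITGAM at 7.89 to 29.5. Of 6 epithelial markers, CDH1 was at 0, KRT5 and EPCAM at no more than 11.4, KRT14 at 20.5 to 55.3, KRT8 at 926 to 1208 and KRT18 at 5569 to 6548. The part of these levels in the members' values was not tested.

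Differences were tested with limma on log2(normalized count + 1) across 15431 genes, kept where 2 or more libraries reached a normalized count of 10; all 5 members passed. limma called 0 of these genes at an adjusted p (Benjamini-Hochberg) under 0.05, a background of 0%, and hence none of the members; at an unadjusted p under 0.05 it had 903 genes higher and 950 lower, BTG1 and BTG2 among them. edgeR's quasi-likelihood test and limma-voom on the recovered reads also called 0. DESeq2 on those reads called 1.21% of 16330 genes higher and 1.22% lower in the knockout, 398 in all, and 2 of the 5 members, BTG1 higher and BTG2 lower. With all 4 libraries, statements that a gene was called therefore rest on DESeq2 alone. Both knockout libraries lay above both parental ones in 22.8% of the 15431 genes and below both in 23.7%; among the members this was so of BTG1 and BTG2, in opposite directions, while BTG3, TOB1 and TOB2 overlapped.

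BTG2, the p53-induced and growth-factor-induced member, had 190 and 282 normalized counts in knockout libraries 2 and 8, against 587 and 527 in parental libraries 1 and 2. Both knockout values lay below both parental ones, at 34.2% and 50.7% of the parental mean. In bulk RNA, fewer cells with a transcript and less of it per cell cannot be told apart. The recovered reads were 181 and 289 in the knockout and 535 and 601 in the parental libraries. The means were 236 ± 64.9 in the knockout and 557 ± 42.0 in the parental line (SD, n = 2 each). The limma log2 fold change was -1.26 ± 0.23 (SE), with an unadjusted 95% interval of -1.86 to -0.65 and an adjusted p = 0.248. By DESeq2 the log2 fold change was -1.23 ± 0.28 (SE), with an adjusted p = 9.76e-04. Between the knockout libraries, library 8 minus library 2, the log2 difference was 0.56, and between the parental ones, library 2 minus library 1, it was -0.15. The DESeq2 call was lost without either parental library (adjusted p = 1.00 without library 1 and 0.701 without library 2), with the log2 fold change at -1.16 and -1.31.

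BTG1, the relative of BTG2 linked to quiescence, differed in the other direction. It had 11362 and 9690 normalized counts in knockout libraries 2 and 8, against 6526 and 7073 in parental libraries 1 and 2. Both knockout libraries were above both parental ones, at 167% and 143% of the parental mean. The means were 10526 ± 1182 in the knockout and 6800 ± 387 in the parental line (SD, n = 2 each), a ratio of 1.55. The limma log2 fold change was 0.63 ± 0.11 (SE), with an unadjusted 95% interval of 0.33 to 0.92 and an adjusted p = 0.246. By DESeq2 it was 0.63 ± 0.15 (SE), with an adjusted p = 0.00184. As for BTG2, the call was lost without either parental library (adjusted p = 1.00 in both cases), with the log2 fold change at 0.57 without parental library 1 and 0.69 without parental library 2.

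**Figure D1:**
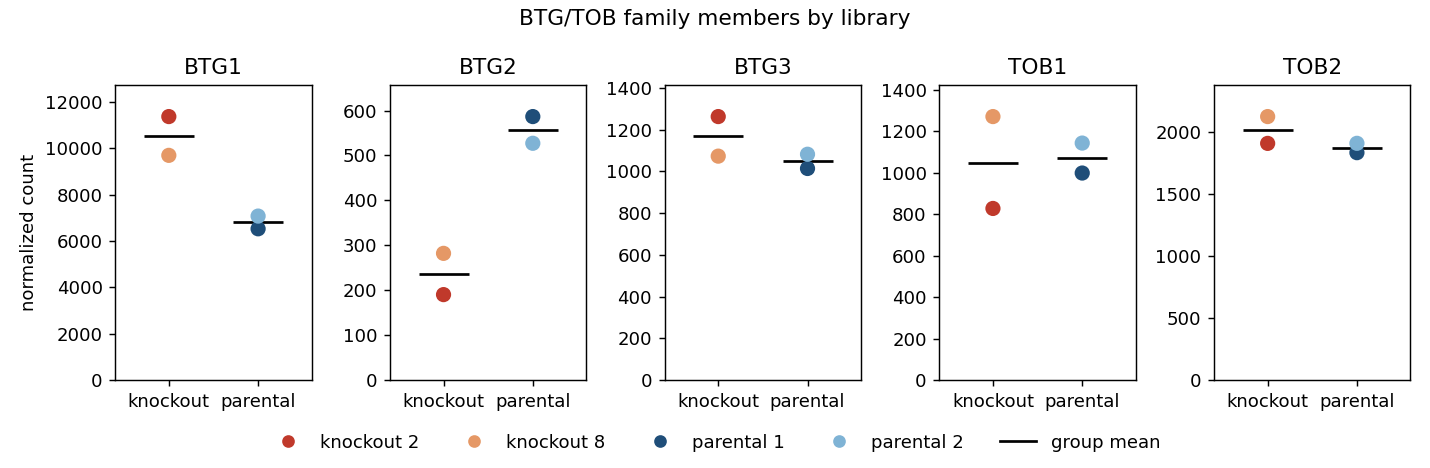
Normalized counts (vertical axis, linear from 0) of the 5 members in each library; points are libraries and bars group means, n = 2 each. Both knockout points of BTG1 lie above its parental points, and those of BTG2 below its own, while the groups overlap for BTG3, TOB1 and TOB2.

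BTG3, the E2F1-binding member, had 1263 and 1073 normalized counts in knockout libraries 2 and 8, against 1014 and 1082 in the parental libraries. Knockout library 2 was the highest of the 4, and knockout library 8 lay within the parental pair. The limma log2 fold change was 0.15 ± 0.12 (SE; 95% interval -0.16 to 0.47, adjusted p = 0.647). A p above the threshold does not show that BTG3 was the same in both lines.

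TOB1, a poly(A)-binding-protein partner that also restrains SMAD signalling, parted between the knockout libraries. It had 827 and 1270 normalized counts in knockout libraries 2 and 8, against 998 and 1142 in the parental libraries. Knockout library 2 was the lowest and knockout library 8 the highest of the 4. The limma log2 fold change was -0.06 ± 0.23 (SE; 95% interval -0.67 to 0.55, adjusted p = 0.933). Without knockout library 2 the limma log2 fold change of TOB1 was 0.25, and without knockout library 8 it was -0.37. Its sign thus depends on which knockout library is read. Each of these fits leaves 1 knockout library, so only the effect size is given here.

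TOB2, the paralog of TOB1, had 1909 and 2125 normalized counts in knockout libraries 2 and 8, against 1834 and 1910 in the parental libraries. Knockout library 8 was the highest, and knockout library 2 lay just below parental library 2. The limma log2 fold change was 0.11 ± 0.09 (SE; 95% interval -0.14 to 0.35, adjusted p = 0.684). This interval is the narrowest among the 5 members.

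**Figure D2:**
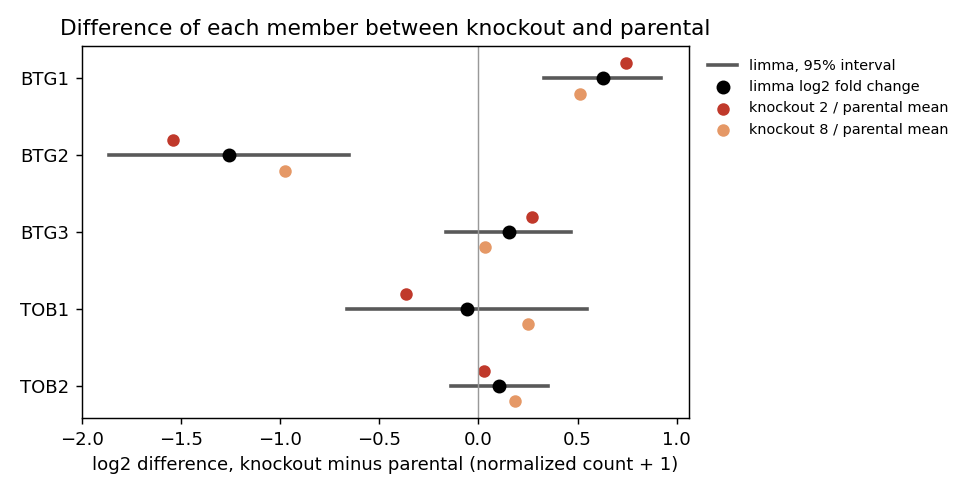
Log2 difference of each member, knockout minus parental, on log2(normalized count + 1): black points and bars are limma estimates with unadjusted 95% intervals, coloured points are single knockout libraries against the parental mean of log2 values. The intervals of BTG1 (0.33 to 0.92) and BTG2 (-1.86 to -0.65) lie on either side of 0, and the knockout libraries fall on opposite sides of 0 for TOB1 (-0.37 and 0.25).

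Levels of different members were compared as normalized counts per kb of annotated exon. BTG1 had the highest per-kb level of the 5 in every library, at 2341 and 1996 in knockout libraries 2 and 8, against 1344 and 1457 in the parental libraries. BTG2 had the lowest in every library, at 69.1 and 102 in the knockout, against 213 and 191 in the parental line. BTG3, TOB1 and TOB2 lay between them, at per-kb levels of 328 to 548 in the knockout libraries and 396 to 469 in the parental ones, and their order differed between libraries. The order of these 3 depends on the length used: per kb of the longest transcript, BTG3 was second in every library, at 850 and 723 in knockout libraries 2 and 8, against 683 and 729 in the parental libraries, while TOB1 and TOB2 lay between 371 and 570.

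Of the per-kb level summed over the 5 members, BTG1 made up 63.2% and 56.5% in knockout libraries 2 and 8, against 48.1% and 48.8% in the parental libraries. BTG2 made up 1.87% and 2.90% in the knockout, against 7.61% and 6.40% in the parental line. The per-kb ratio of BTG1 to BTG2 was 33.9 and 19.5 in the knockout libraries, against 6.32 and 7.62 in the parental ones. The summed per-kb level was 3704 and 3533 in the knockout libraries, against 2795 and 2989 in the parental ones. None of these measures overlapped between the groups. They are built largely from BTG1 and BTG2, whose own values did not overlap, so this is not a separate result. An exact two-sided permutation test of 2 libraries against 2 cannot give a p below 0.333, the value that each of them gave.

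**Figure D3:**
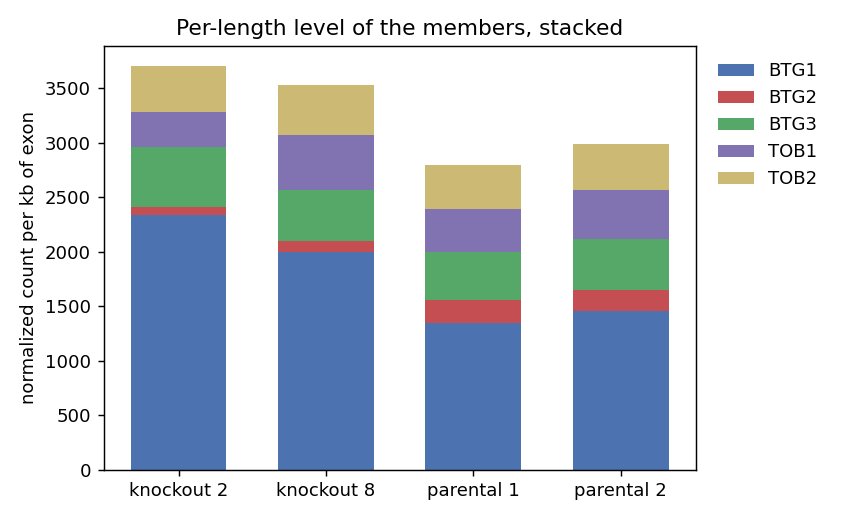
Normalized count per kb of exon (vertical axis) in each library, stacked by member. The summed level is 3704 and 3533 in knockout libraries 2 and 8 against 2795 and 2989 in parental libraries 1 and 2, with a larger BTG1 and a smaller BTG2 segment in the knockout.

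Each member was set beside its chromosome region, taken as its nearest expressed neighbours, up to 20 on each side with a mean normalized count of at least 100. The region of BTG2 was lower in 1 knockout library: its 40 neighbours had a median log2 ratio (against the mean of the parental log2 values) of 0.04 in knockout library 2 and -0.32 in knockout library 8. BTG2 itself was at -1.54 and -0.98, a difference from the median of its neighbours of -1.58 and -0.66. In knockout library 2, where the neighbours were not lower, 0 of the 40 were as low as BTG2. In knockout library 8, 2 of the 40 were lower, LEMD1 (-1.99) and PHLDA3 (-1.01), both named after their values were seen; PHLDA3, itself a p53 target, was at 0.86 in knockout library 2.

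The 40 neighbours of BTG1 had medians of -0.08 and -0.01 in knockout libraries 2 and 8, and BTG1 was 0.82 and 0.53 log2 units above them, higher than 40 and 39 of the 40. Around BTG3, where fewer expressed genes lie on one side, 28 neighbours had medians of 0.11 and -0.08. The neighbours of TOB1 had medians of 0.03 and 0.0024, and those of TOB2 -0.00083 and 0.02. TOB1 was lower than all but 2 of its 40 neighbours in knockout library 2 and higher than 36 of them in knockout library 8. TOB2, whose groups overlapped, was higher than 21 of its 40 neighbours in knockout library 2 and than all 40 in knockout library 8. A place above every neighbour was thus not particular to BTG1. BTG3 was higher than 22 and 17 of its 28 in knockout libraries 2 and 8. For the parental pair, as library 2 minus library 1, the medians of the 5 neighbourhoods ranged from -0.03 to 0.03. The part of the regional shift in the BTG2 value of knockout library 8 was not tested beyond these values.

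**Figure D4:**
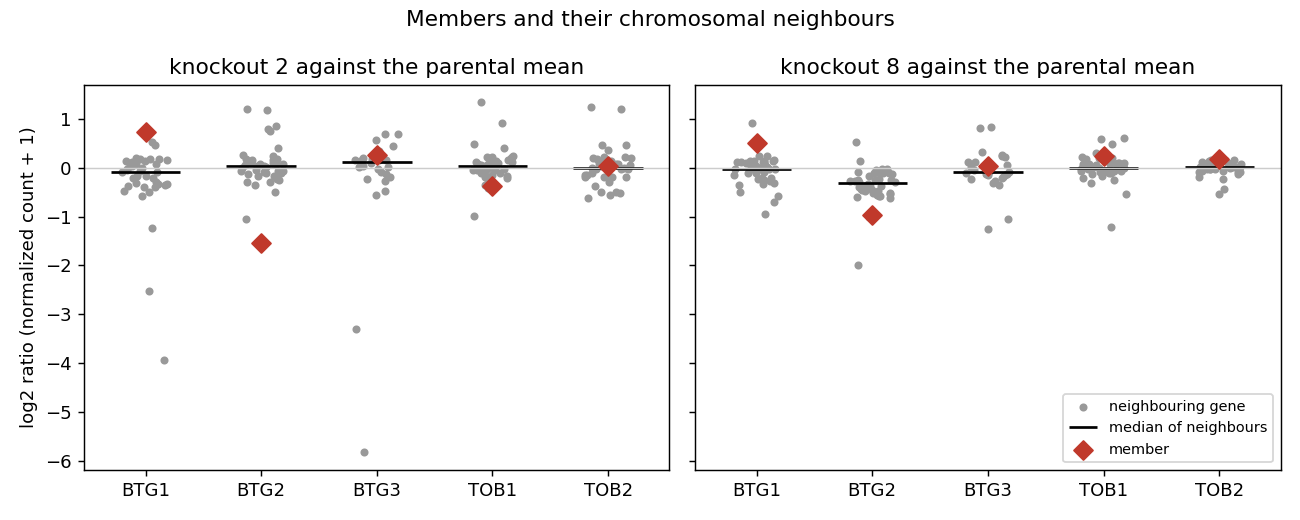
Log2 ratio to the parental mean (vertical axis) of each member (red diamond) and of its nearest expressed neighbours on the chromosome (grey points, black line at their median), for knockout library 2 (left) and knockout library 8 (right). BTG2 lies below the median of its neighbours and BTG1 above that of its own in both, and the neighbours of BTG2 have a median of -0.32 in knockout library 8.

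Other loci of the family were looked up. BTG4, an oocyte member of the family, had 0 reads in all 4 libraries, which at a floor of 3 reads per library allows a normalized count of up to 2.63 to 3.29. LINC01136, the older symbol of the divergent transcript BTG2-DT that starts next to BTG2, had 0 and 1 reads in the knockout libraries and 4 and 3 in the parental ones, too few to compare. TOB1-AS1, which runs antisense to the 5′ part of TOB1, had 19.996 and 44.9 normalized counts in knockout libraries 2 and 8, against 49.3 and 50.9 in the parental libraries. Like TOB1, it was lowest in knockout library 2, where it had only 19 reads. In knockout library 8 the 2 differed: TOB1-AS1 lay below both parental libraries, while TOB1 was at its highest. The limma log2 fold change of TOB1-AS1 was -0.72 ± 0.45 (SE, adjusted p = 0.573). The libraries were stranded, but the strand setting of the counting is not given in the sources used here, so reads of TOB1 and TOB1-AS1 may not have been kept apart. TOB2P1, a processed pseudogene of TOB2 on chromosome 6 that was picked after its values were seen, had 204 and 230 in the knockout libraries, against 145 and 138 in the parental ones (limma log2 fold change 0.62 ± 0.17 SE, adjusted p = 0.321). Its reads cannot be told apart with certainty from those of TOB2.

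The partners through which these proteins act were measured as well. Of 20 genes of the CCR4-NOT complex and other deadenylases, all tested, limma and DESeq2 called 0. Over all genes limma called 0%, and DESeq2 called 1.21% higher and 1.22% lower. The knockout pair lay wholly above the parental pair for 5 and wholly below it for 3, against 22.8% and 23.7% of all genes. The median limma log2 fold change of the 20 was 0.03, against -0.0057 over all 15431 genes. The CAF1 subunit CNOT7 had 2648 and 2215 normalized counts in knockout libraries 2 and 8, against 2228 and 2231 in the parental libraries. Its paralog CNOT8 had 3441 and 3117 in the knockout libraries, against 3154 and 3274. The deadenylase PAN2, the member with the smallest unadjusted p, had 2366 and 2304 in the knockout libraries, against 3260 and 2963 (limma log2 fold change -0.41 ± 0.09 SE, adjusted p = 0.261). CNOT9, listed under its older symbol RQCD1, was at 2724 and 3370 in the knockout, against 2183 and 2405, or a limma log2 fold change of 0.40 (adjusted p = 0.377). The other 2 with the smallest p, TNKS1BP1 and CNOT6, were at 0.29 and 0.16 (limma adjusted p = 0.407 and 0.515).

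Cytoplasmic poly(A)-binding proteins and their interactors gave 0 calls among 8 genes, with a median log2 fold change of -0.05. PABPC1 had 41233 and 50714 normalized counts in knockout libraries 2 and 8, against 48787 and 46624 in the parental libraries, and the 2 knockout values lay outside the parental pair, 1 below and 1 above. The 4 with the smallest p were PAIP2, PABPC4, PABPC3 and PAIP1, with limma log2 fold changes of 0.16, -0.16, -0.13 and -0.05 and adjusted p between 0.562 and 0.831; reads of PABPC3, an intronless relative of PABPC1, cannot be assigned with certainty. RNA-binding adaptors that bring CCR4-NOT to its targets gave 0 calls among 18 tested, with a median of 0.05. For 4 of these adaptors the knockout pair lay wholly above the parental pair and for 2 wholly below. ZFP36, tristetraprolin, which directs the decay of AU-rich mRNAs, had 522 and 704 in the knockout libraries, against 856 and 848 (log2 fold change -0.49 ± 0.17 SE by limma, adjusted p = 0.394). SAMD4A, a Smaug homologue, had 298 and 434 in the knockout libraries, against 649 and 546 (log2 fold change -0.73 ± 0.23 SE, limma adjusted p = 0.362). RC3H1, roquin, and TNRC6B, a partner of Argonaute proteins, were at 0.29 and 0.17 (limma adjusted p = 0.438 and 0.491). Among 17 tested of 18 reported partners of the family, which share CNOT7, CNOT8, CPEB3, CPEB4 and PABPC1 with those lists, 0 were called. For 2 of these partners the knockout pair lay wholly above the parental pair and for 2 wholly below. The 4 with the smallest p were SMAD7, HOXB9, SMAD6 and SMAD5, with limma log2 fold changes of 0.45, -0.20, -0.48 and -0.11 and adjusted p between 0.461 and 0.657. The partner of BTG1 and BTG2, PRMT1, had 8679 and 8934 in the knockout libraries, against 8168 and 8522.

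Genes of the G1 phase, where the family acts, gave 0 calls among 23 tested. Over all genes limma called 0%, and DESeq2 called 1.21% higher and 1.22% lower. For 7 of the 23 the knockout pair lay wholly above the parental pair and for 2 wholly below, against 22.8% and 23.7% of all genes. The median over the 23 genes of the log2 ratio to parental cells was 0.35 for knockout library 2 and -0.00068 for knockout library 8. CCND1, cyclin D1, which BTG2 and TOB1 have been reported to lower, had 24438 and 15396 normalized counts in knockout libraries 2 and 8, against 15789 and 16733 in the parental libraries, so knockout library 2 was the highest and knockout library 8 the lowest of the 4. MYC was at 670 and 704 in the knockout libraries, against 503 and 511 (limma log2 fold change 0.44 ± 0.11 SE, adjusted p = 0.302), and RB1 at 4943 and 4774, against 4246 and 4221 (limma adjusted p = 0.401). CDKN2A and E2F3 were at limma log2 fold changes of -0.57 and 0.25 (adjusted p = 0.421 and 0.469).

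BTG2 was set beside genes induced by p53 and genes induced by phorbol ester. Among 19 tested of 22 other antiproliferative genes that p53 activates, 8 were lower and 3 higher in both knockout libraries (23.7% and 22.8% of all genes were), and DESeq2 called 6 lower (ZMAT3, TP53INP1, GDF15, DDB2, SESN1 and CCNG1) and 0 higher, against the 1.22% and 1.21% of all genes. ZMAT3, an RNA-binding p53 target, had 1006 and 1108 normalized counts in the knockout libraries, against 1744 and 1644 (DESeq2 adjusted p = 0.0010). TP53INP1, an autophagy and stress protein, had 210 and 221 in the knockout libraries, against 441 and 389 (DESeq2 adjusted p = 0.00417). The median limma log2 fold change of the 19 was -0.11, against -0.0057 over all genes tested. Their median log2 ratio to parental cells was -0.32 for knockout library 2 and -0.47 for knockout library 8. The limma log2 fold change of BTG2 (-1.26) lay between those of DDB2 (-0.97) and GDF15 (-1.74), both among the genes called lower.

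Among the 6 other genes first described with BTG2 as induced by phorbol ester, the TIS genes, DESeq2 called 1 higher and 0 lower. Over all genes it called 1.21% higher and 1.22% lower. The median limma log2 fold change of the 6 was -0.03. NR4A1, a nuclear receptor, had 10285 and 9234 normalized counts in knockout libraries 2 and 8, against 5480 and 6947 in the parental libraries (DESeq2 adjusted p = 0.0109). PTGS2, cyclooxygenase 2, had 6180 and 1248 in the knockout libraries, against 667 and 475 (limma adjusted p = 0.391, DESeq2 adjusted p = 0.203). IFRD1 had a limma log2 fold change of -0.18 (adjusted p = 0.616). EGR1 had 3422 and 3298, against 3306 and 3015, and FOS 341 and 334, against 361 and 393. Of these 6, the knockout pair lay wholly below the parental pair for ZFP36 and FOS, and wholly above it for NR4A1 and PTGS2. Over all genes tested by limma the shares were 23.7% below and 22.8% above. BTG2 itself also lay below.

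Of 11 tested regulators of BTG and TOB genes known from other cells, DESeq2 called 1 higher, NFKB1, and 0 lower. Over all genes it called 1.21% higher and 1.22% lower. The knockout pair lay wholly above the parental pair for 5 and wholly below it for 1, against 22.8% and 23.7% of all genes. NFKB1, a subunit of NF-kB, had 6586 and 6957 in the knockout libraries, against 5022 and 5138 (DESeq2 adjusted p = 0.0266). FOXO3, an activator of BTG1, had 1236 and 1216 in the knockout libraries, against 1129 and 1071, while FOXO1 had 702 and 1466, against 793 and 775. The p53 relative TP73 had 651 and 652 in the knockout libraries, against 468 and 510 (limma adjusted p = 0.319), CREB1 and FOXO4 had limma log2 fold changes of 0.32 and -0.33 (adjusted p = 0.393 and 0.503), and TP63 was below 10 in every library.

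**Figure D5:**
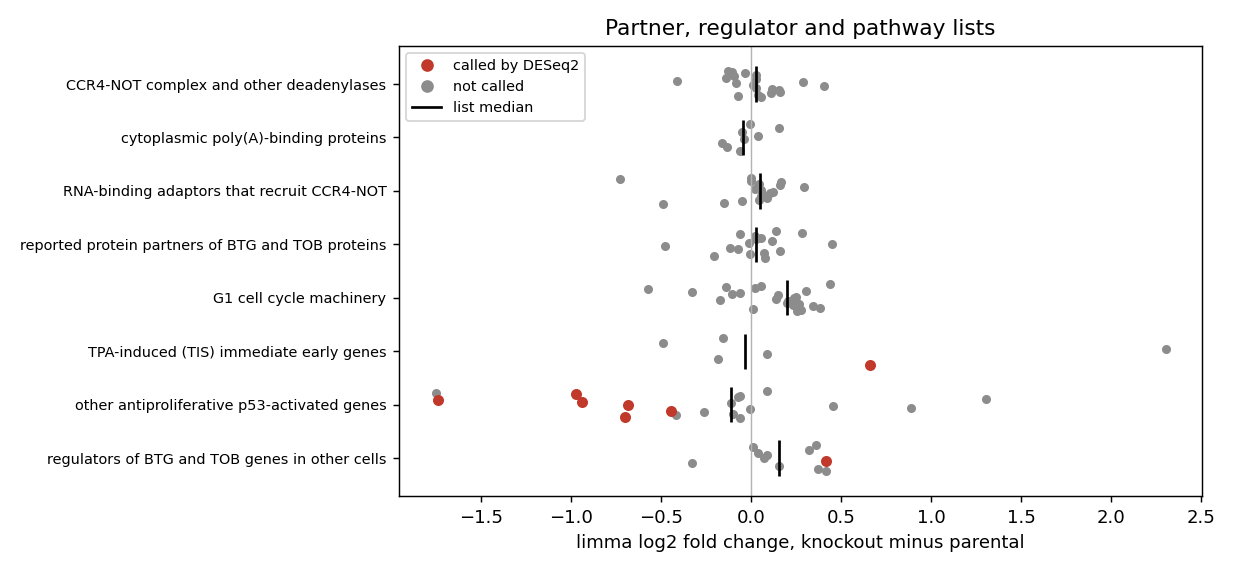
Limma log2 fold change, knockout minus parental (horizontal axis), of each tested gene in 8 lists of partners, regulators and related genes, the 5 members left out; red points were called by DESeq2 and black lines are list medians. Called genes stand in the lists of p53-activated genes (6 lower), TIS genes (1 higher) and regulators (NFKB1 higher).

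The genes whose centred log2 profile over the 4 libraries lay nearest to each member, among 12270 genes with a mean of at least 100, are given as a description only, since 4 libraries leave many profiles alike. AMOT and PYROXD2 were nearest to BTG2, at Euclidean distances of 0.15 and 0.15 log2 units. C11orf96 and GNG11 were nearest to BTG1, at 0.03 and 0.06, PELO and HN1L to BTG3, at 0.01 and 0.01, DUSP4 and SPIN4 to TOB1, at 0.03 and 0.06, and MAPK8IP1 and PPIB to TOB2, at 0.0079 and 0.01. The nearest genes of BTG2 lay farther from it than those of the other members from theirs. Such distances tend to be larger for profiles with larger differences, and BTG2 had the largest fold change of the members. The larger distance therefore does not show an unusual profile. By Pearson correlation over the 4 libraries other genes came first for every member.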

How the data were processed

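The submitters' processing notes name build hg38 and the tools STAR, HTSeq, Picard, deepTools and DESeq2. Not given in the sources used here are their versions, the annotation, the strand setting and how multiply aligned reads were handled. The deposited values are a normalized signal per gene, read counts that the authors divided by 1 factor per library, with no correction for length. In each library 100% of values were whole multiples of its smallest value within 0.001, which gave back whole reads; the reciprocals of these steps (0.950, 1.02, 0.912 and 1.14 for knockout 2, knockout 8, parental 1 and parental 2) equalled median-of-ratios factors. The floor of 3 reads covers counting error only; the 95% intervals are limma's and reflect the spread between libraries.

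Parental columns carry the labels' replicate numbers; the knockout columns, numbered 2 and 8, were used as members of their group. Groups were compared mainly by limma-trend (limma 3.58.1) on log2(normalized count + 1), with genes at 10 or more in at least 2 libraries and Benjamini-Hochberg adjustment over all of them; such fold changes understate those of weakly expressed genes. DESeq2 1.42.0, edgeR 4.0.16 and limma-voom on recovered reads, other filters, another scaling, a smaller pseudocount (0.1) and fits without 1 library were alternatives; the code was tested on simulated data. Members and lists were chosen with earlier results of these data known, so no p is adjusted over a list alone. Named genes are the members, other family loci, the 4 genes per list with the smallest limma p and the 2 nearest profiles per member; CNOT7, CNOT8, PABPC1, PRMT1, CCND1, EGR1, FOS, FOXO1, FOXO3, TP63, SESN1, CCNG1, the markers, CPEB3, CPEB4, PHLDA3, LEMD1 and TOB2P1 fall outside this rule and were named after their values were seen. The level of the gene targeted by the editing is not reported here. The TGACG motif was likewise added after the sequences were seen. Exon lengths and positions come from GENCODE 29. Promoters come from RefSeq, which had an entry for all 5 members. Coding bases (Biopython 1.88, global alignment, pairs covering at least 90% of the shorter) replaced the protein comparison that had been planned.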

Additional observations from a re-analysis of the deposited data

How the results depend on the processing

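The count of genes called, 0 by limma, was 398 by DESeq2 and 0 by edgeR (TMM or RLE factors), limma-voom, a pseudocount of 0.1, no filter, at least 1 CPM, or upper quartile rescaling. Without knockout library 2 or 8 limma called 2896 and 5023 genes, and without either parental library 0. DESeq2 without 1 library, chosen after seeing the data, called 1270 and 2611 without knockout library 2 or 8 and 39 and 46 without parental library 1 or 2. In these fits the lone library of a group is assumed to vary like the other group. BTG1 kept its direction under every alternative: its log2 fold change was 0.63 by DESeq2 (called), 0.51 to 0.74 without 1 library by limma and 0.51 to 0.74 by DESeq2. BTG2 did so too, at -1.23 by DESeq2 (called), -1.54 to -0.98 by limma and -1.55 to -0.98 by DESeq2 without 1 library. In the other 7 alternatives their limma, edgeR or voom adjusted p lay between 0.232 and 0.265. Without knockout library 2 or 8 both were called by limma and DESeq2, and without a parental library by neither. BTG3 ranged from 0.0348 to 0.27 by limma and was called without knockout library 8 (adjusted p = 0.0366). TOB1 reversed: it ranged from -0.37 to 0.25 by limma and from -0.38 to 0.25 by DESeq2, above 0 without knockout library 2 (0.25 by both) or parental library 2 (0.04 by limma, 0.0722 by DESeq2), and was called by limma only without knockout library 8. TOB2 stayed above 0, at 0.03 to 0.18 by limma. With the longest transcript as length, BTG3 made up 20.6% and TOB2 11.8% of the members' level, against 14.9% and 13.2%. With 10 neighbours on each side the medians of the BTG2 region were 0.04 and -0.30. No paired analysis was possible because the knockout columns carry numbers that do not match the labels' replicate numbers.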
